A study of Glycyrrhiza uralensis with 12 samples.

Results

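SS and INV are the genes that the study names sucrose synthase (*Glyur001957s00039090*) and invertase, or beta-fructofuranosidase (*Glyur000064s00005640*), in its list of carbohydrate genes of *Glycyrrhiza uralensis*, a licorice of dry and saline land. They are 2 of the 29436 genes in the expression table, were found there by these identifiers, and both passed the filter on low values in each comparison. Their enzyme names come from the study, since the gene annotation gives no functions, and other sucrose synthase or invertase genes of this genome cannot be picked out and were not analysed here. The study listed SS for its S + G2 vs. S comparison and INV for its S vs. CK comparison, so the values of each gene there, and the SS/INV ratios of both comparisons, are given as descriptions without a test.

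All 12 libraries were made from 45-day-old seedlings grown in nutrient-free desert sand, with 3 libraries per treatment. S + G2 was watered with 75 mM NaCl and a suspension of 100000000 cfu/mL of *Bacillus cereus* G2, an endophytic bacterium, S with 75 mM NaCl alone, CK + G2 with the G2 suspension in distilled water, and CK with distilled water alone. The study gave the NaCl at sowing and G2 only later, to the seedlings, so the exposure to salt was the longer. The sample labels write the bacterium as B. The question for the 2 genes is how salt, and G2 with or without salt, went with the transcripts of the enzymes that split sucrose.

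Sucrose is the sugar that most plants move from leaves to roots and growing tissues, and it has to be split before a cell can use it. Invertase cuts it irreversibly with water into glucose and fructose, in the cell wall, the vacuole or the cytosol depending on the isoform. Sucrose synthase, in spite of its name, acts mostly in the direction of cleavage in sink tissues, where it turns sucrose and UDP into fructose and UDP-glucose, a precursor of cellulose, starch and other glucans. The reaction is reversible and keeps the energy of the sucrose bond in the UDP-glucose. Which compartment the INV studied here serves is not stated.

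The study designed a pair of primers for each gene for PCR on the same RNA. They are given as the study assigned them to SS and INV, and the levels below do not rest on them. Each is written 5′ to 3′ in lower case:
SS forward: tttgttgctttggctgttcg
SS reverse: ttagcagaaagatggcggttg
INV forward: atacccttcaaaccctgtcctg
INV reverse: gcattccctctacacgctcata
The SS primers are 20 and 21 bases long and the INV primers 22 bases each. Their exons were not looked up, as no genome sequence was used here.

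In the deposited annotation SS lies on Scaffold01957 from 34519 to 41018, on the plus strand. It has 1 annotated transcript of 14 exons, 13 of them with coding sequence, with 2599 exon bases, a coding length of 2421 bases or 807 codons with the stop codon, a 5′ UTR of 71 bases and a 3′ UTR of 107 bases. INV lies on Scaffold00064 from 274758 to 278328, also on the plus strand, with 1 annotated transcript of 6 exons, a coding length of 2004 bases or 668 codons, no annotated UTR and a longest intron of 1091 bases. The sources used here do not give the genome release behind these coordinates. SS overlaps 1 annotated gene on the minus strand, *Glyur001957s00039091*, from 38280 to 39911, which held at most 0.277 CPM in any library. Whether reads were assigned by strand is not stated, so reads of the 2 genes cannot be told apart there. INV overlaps no annotated gene. Its neighbours are *Glyur000064s00005639*, which ends 6689 bases before it, and *Glyur000064s00005641*, which starts 1930 bases after it, while the only other gene on the SS scaffold, *Glyur001957s00039092*, starts 4721 bases after SS.

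**Figure D1:**
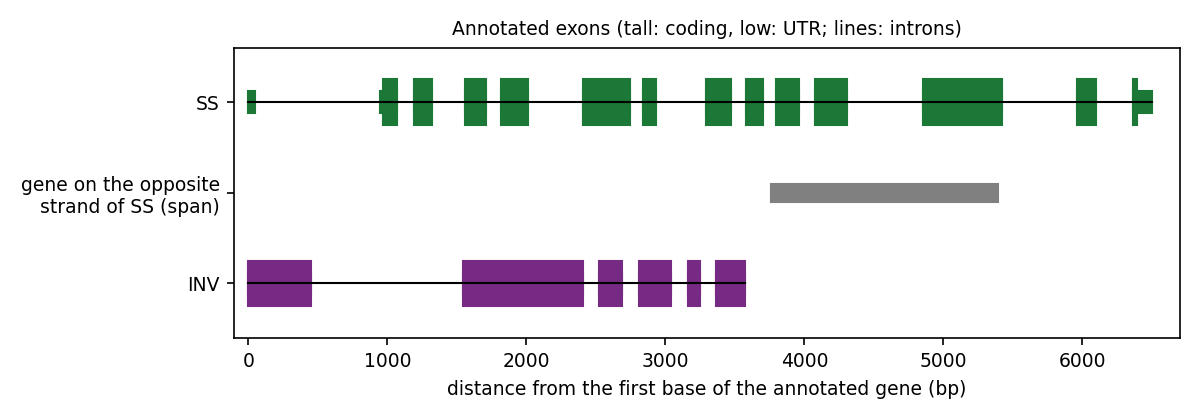
Exon maps of SS and INV in the deposited annotation, drawn to scale as the distance in bp from the first base of each gene, with coding exons tall, UTR low and introns as lines. SS spreads 14 exons over 6500 bp and is crossed by a gene on the opposite strand, shown by its span, while INV has 6 coding exons over 3571 bp.

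The map of the exons shows that the annotated model of INV begins and ends with coding sequence, whereas that of SS opens with an exon of 46 bases that is all UTR.

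The libraries held 3303591 to 3929023 mapped reads. Levels are in CPM, reads per 1000000 mapped reads, and 1 read was worth 0.255 to 0.303 CPM. SS was read 280 to 966 times per library and INV 11 to 77 times, so the levels of INV carry far wider counting intervals than those of SS. Intervals on levels are exact Poisson intervals at 95% and cover counting error only. The 12 libraries correlated with each other at a Pearson r of 0.912 to 0.971 across genes, and none matched another closely enough to be a duplicate. RNA came from ground seedlings, so fewer cells of a type and less RNA per cell cannot be told apart in these levels. The only markers of a tissue that could be set were 3 genes of green tissue named by the study. They are 2 for the small chain of Rubisco and 1 for the chloroplast GPD. The study listed all 3 as higher in S vs. CK, so their levels do not measure tissue independently of salt. Together they held 20861 to 37927 CPM in S + G2 and 23594 to 25421 CPM in S. In CK + G2 they held 8922 to 30440 CPM and in CK 10260 to 21071 CPM.

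SS was highest in S + G2 and lowest in CK, with CK + G2 and S between them and overlapping. In S + G2 it had 257, 151 and 173 CPM in replicates 1 to 3. In S it had 115, 103 and 123 CPM. In CK + G2 it had 104, 126 and 123 CPM, and in CK 91.4, 83.05 and 84.8 CPM. Every S + G2 library lay above every library of the other treatments and every CK library lay below them, while S and CK + G2 overlapped. The means were 194 ± 56.0 CPM in S + G2, 114 ± 10.4 CPM in S, 118 ± 11.9 CPM in CK + G2 and 86.4 ± 4.40 CPM in CK (SD, n = 3 each).

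The libraries of CK agreed within counting error for SS, with an SD 0.893 times the one that counting alone gives, whereas in S + G2 the SD was 7.85 times the counting SD. Replicate 1 of S + G2 set most of that spread. Its interval, 241 to 274 CPM, stayed clear of the intervals of replicate 2, 139 to 164 CPM, and replicate 3, 160 to 186 CPM. In S and in CK + G2 the SD was 1.86 and 2.10 times the counting SD.

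INV was lowest in S and varied most in CK + G2. In S + G2 it had 9.85, 7.65 and 4.66 CPM from 37, 29 and 18 reads. In S it had 4.64, 3.09 and 4.33 CPM from 16, 11 and 17 reads. In CK + G2 it had 8.48, 6.05 and 21.6 CPM from 31, 23 and 77 reads, and in CK 14.2, 12.5 and 8.48 CPM from 55, 45 and 28 reads. All S libraries lay below those of the other 3 treatments, but the lowest S + G2 library was above the highest S library by only 0.0176 CPM, less than the value of 1 read. The means were 7.39 ± 2.61 CPM in S + G2, 4.02 ± 0.818 CPM in S, 12.04 ± 8.36 CPM in CK + G2 and 11.7 ± 2.92 CPM in CK (SD, n = 3 each).

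Replicate 3 of CK + G2 held the highest INV level of the 12 libraries, with an interval of 17.0 to 27.0 CPM that did not reach those of the other two CK + G2 libraries, 5.76 to 12.03 and 3.83 to 9.08 CPM. The same library had the lowest summed level of the 3 green tissue genes, 8922 CPM, against 30440 and 11716 CPM in replicates 1 and 2. Over the 12 libraries the 2 Rubisco genes had a Pearson r of -0.55 and -0.56 with INV, and GPD one of -0.60. With SS the same 3 genes had an r of 0.30, 0.22 and 0.31. The study listed INV as lower and the 3 green tissue genes as higher in S vs. CK, so their r with INV is not independent of the listing. The part of green tissue in the levels of INV and SS was not tested.

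**Figure D2:**
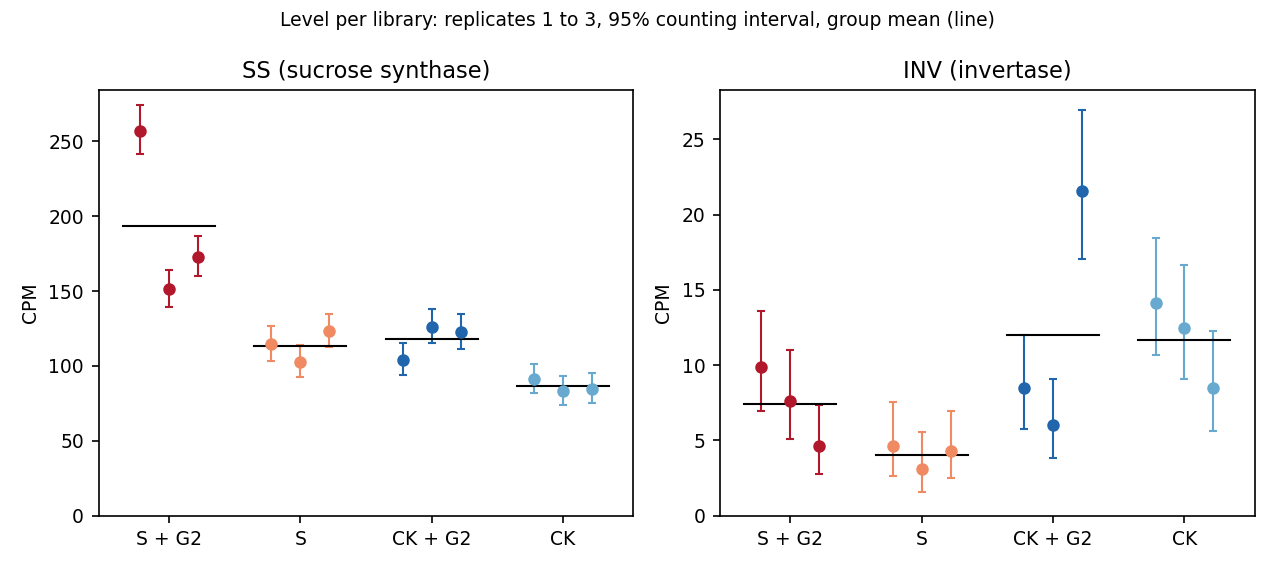
Levels of SS (left) and INV (right) in CPM in the 3 libraries of each treatment, with replicates 1 to 3 from left to right, 95% exact Poisson counting intervals as bars and the group mean as a line. SS lies at 151 CPM or above in S + G2 and at 126 CPM or below elsewhere, and INV lies below 5 CPM in all S libraries and reaches 21.6 CPM in 1 CK + G2 library.

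The S + G2 vs. S comparison asks what G2 did under salt. The mean of SS was 1.71-fold higher in S + G2, a difference of 0.73 (standard error 0.20) in mean log2(CPM + 1), the scale of all log2 fold changes given here. The gap between the lowest S + G2 library and the highest S library was 27.7 CPM. Without replicate 1 of S + G2 the log2 fold change was 0.51. This is the comparison for which SS was listed, so no test is given, and 5.2% of the 21518 genes in the fit lay higher in S + G2 without overlap. The study reported a higher sucrose synthase activity with G2 under salt. Its qRT-PCR results did not name SS among the genes that G2 raised under salt.

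INV, too, did not overlap between the treatments and had a mean in S + G2 that was 1.84-fold that of S. Its log2 fold change of 0.70 (standard error 0.30, 95% interval 0.01 to 1.39) had an adjusted p of 0.843 by limma with the Benjamini-Hochberg procedure over all genes, and 0.00465% of all genes passed an adjusted p of 0.05 in either direction. Before adjustment the p of INV was under 0.05, as it was for 2.88% of all genes as higher, but only in 6 of 10 other tools and settings and with 1 of the 6 libraries left out. The difference of INV did not pass the test. With 3 libraries against 3 an exact permutation test cannot go below 0.1. The S libraries entered the listing of INV in S vs. CK, so this value is not independent of how INV was chosen. The study's qRT-PCR of INV on the same RNA pools reported the opposite direction, lower with G2 under salt. For salt alone it reported INV as lower, the direction seen here in S vs. CK.

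The S vs. CK comparison asks what salt did in the absence of G2. INV averaged 2.91-fold less in S than in CK, a log2 fold change of -1.32 (standard error 0.26) with a gap of 3.84 CPM between the groups. It is the comparison for which INV was listed, and 12.8% of the 21543 genes in the fit lay lower in S without overlap. Leaving out a library in turn gave log2 fold changes of -1.52 to -1.18.

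SS had a mean 1.31-fold higher in S than in CK without overlap, as 7.58% of genes did in that direction. The log2 fold change was 0.39 (standard error 0.13, 95% interval 0.09 to 0.69) with an adjusted p of 0.191 by limma, where 1.94% of genes passed an adjusted p of 0.05 in either direction. Its unadjusted p was under 0.05, and so was that of 5.42% of genes as higher. This held in 9 of 10 other tools and settings and in 4 of the 6 fits without a library. SS did not pass the test over all genes. The S libraries served in the listing of SS as the lower group.

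The CK + G2 vs. CK comparison asks what G2 did without salt, and it shares no library with the comparison that listed SS. SS lay higher in every CK + G2 library than in every CK library, by 12.8 CPM between the nearest of them, with a mean 1.36-fold that of CK. Of all genes, 5.18% lay higher without overlap. The log2 fold change was 0.44 (standard error 0.16, 95% interval 0.09 to 0.79) with an adjusted p of 0.669 by limma, where 0.06% of genes passed an adjusted p of 0.05 in either direction. Its unadjusted p was under 0.05, which 2.59% of genes reached as higher, and stayed so in 9 of 10 other tools and settings but in only 2 of the 6 fits without a library. SS was higher in 3 of 3 CK + G2 libraries but did not pass the test over all genes.

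INV overlapped between CK + G2 and CK, and the direction of its difference depended on the scale. The mean of CK + G2 was 1.03-fold that of CK, while the log2 fold change was -0.12 (standard error 0.40, 95% interval -1.02 to 0.78, adjusted p = 1.00 by limma). The interval leaves room for changes of either sign, and the CK libraries served in the listing of INV. Without replicate 3 of CK + G2 the log2 fold change was -0.61, and without replicate 2 it was 0.23.

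The S + G2 vs. CK + G2 comparison asks what salt did in the presence of G2, and it shares no library with the comparison that listed INV. INV had 1.63-fold less in S + G2 by the means, with overlap. The log2 fold change was -0.50 (standard error 0.44, 95% interval -1.49 to 0.49, adjusted p = 0.714 by limma), and it was -0.01 without replicate 3 of CK + G2, so 1 library decided this value. The SD of INV was 1.87 times the counting SD in S + G2 and 4.65 times in CK + G2, and the difference did not pass the test.

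All S + G2 libraries lay above all CK + G2 libraries for SS, with a mean 1.65-fold higher, where 4.45% of genes lay higher without overlap. The log2 fold change was 0.68 (standard error 0.22, 95% interval 0.18 to 1.19) with an adjusted p of 0.414 by limma, where 0.0369% of genes passed an adjusted p of 0.05 in either direction. The unadjusted p was under 0.05, as for 3.26% of genes as higher, and so it was in all 10 other tools and settings and in 5 of the 6 fits without a library. The lowest adjusted p that another setting gave was 0.0996, by DESeq2. The S + G2 libraries served in the listing of SS as the higher group.

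Both salt comparisons of SS can enter 1 test by exchanging libraries only within a G2 level. The mean salt effect over both levels was 0.53 on the log2 scale, with all 6 salt libraries above the 3 unsalted libraries of their own G2 level, and an exact two-sided permutation test gave p = 0.005, the smallest that its 400 arrangements can give. Of the 22751 genes in the fit of all 12 libraries, 167 or 0.734% lay higher with salt without overlap at both G2 levels. Leaving out 1 library at a time gave effects of 0.42 to 0.61. The exact p was then 0.005 to 0.01, which the lack of overlap at both levels fixes in advance, so it adds no support. S and S + G2, the groups in which SS was listed, are both on the salt side of this test. For salt without G2 the study reported no significant change of this gene, by sequencing or by qRT-PCR. It measured a lower sucrose synthase activity with salt, which is a value of the enzyme and not of this transcript. The same exact permutation test of G2 on INV over both salt levels gave 0.29 with p = 0.365. Leaving out a library moved that value between 0.05 and 0.47. These 2 tests were made, 1 for each gene.

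Whether the G2 effect differed between salted and unsalted seedlings was tested as an interaction over all 12 libraries. For SS the G2 effect was larger under salt by 0.29 (standard error 0.26, 95% interval -0.26 to 0.85, adjusted p = 0.906 by limma), and by 0.07 without replicate 1 of S + G2. For INV it was larger under salt by 0.82 (standard error 0.55, 95% interval -0.35 to 1.998, adjusted p = 0.862 by limma), and by 1.31 without replicate 3 of CK + G2, with an adjusted p of at least 0.621 over the libraries left out. An interaction was not shown for either gene, and 0.0044% of all genes passed an adjusted p of 0.05. The libraries that listed both genes are part of this fit.

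**Figure D3:**
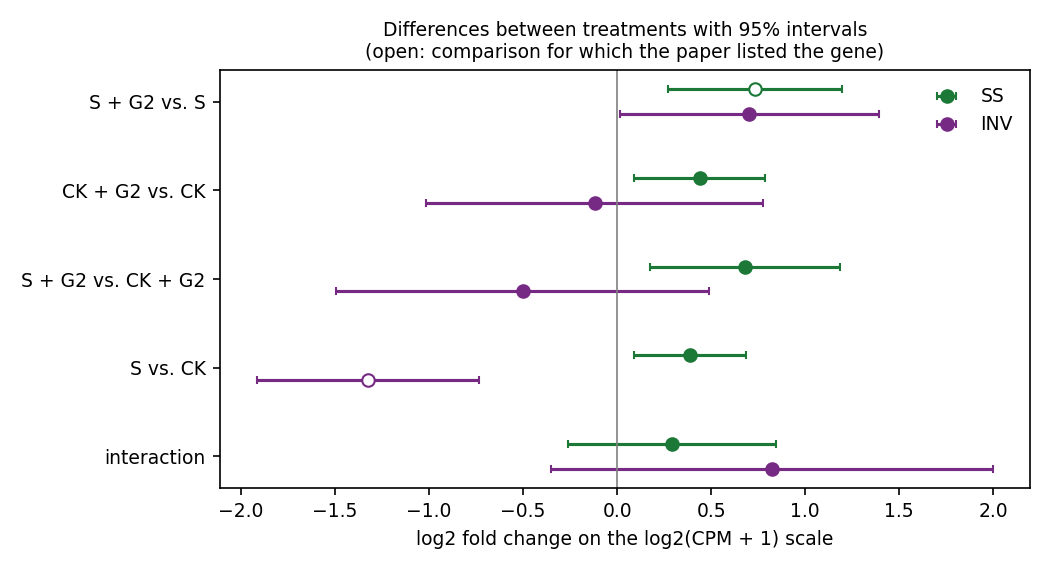
Log2 fold changes of SS and INV on the log2(CPM + 1) scale with 95% intervals from limma for the 4 comparisons and the interaction of salt and G2, with open points where the study listed the gene for that comparison. SS lies above 0 in all 4 comparisons, from 0.39 to 0.73, and INV lies at -1.32 in S vs. CK and at 0.70 in S + G2 vs. S with the widest intervals where CK + G2 enters.

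The ratio of SS to INV reads within a library does not depend on how the library was scaled. It lay between 19.8 and 37.1 in the 6 salted libraries and between 5.69 and 20.9 in the 6 unsalted ones. It was 26.1, 19.8 and 37.1 in S + G2 and 24.7, 33.2 and 28.5 in S. It was 12.3, 20.9 and 5.69 in CK + G2 and 6.45, 6.67 and 10 in CK. The S + G2 and S libraries overlapped, and all S libraries lay above all CK libraries. The geometric means were 26.8, 28.6, 11.3 and 7.55 SS reads per INV read in S + G2, S, CK + G2 and CK, or 22.1, 23.7, 9.39 and 6.25 per base of coding length.

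Described without a test, the ratio was 3.79-fold higher in S than in CK, and in S + G2 it was 0.936-fold that of S, the mean levels of SS and INV there being 1.71-fold and 1.84-fold those of S. The ratio in CK + G2 was 1.502-fold that of CK, with overlap, and an exact permutation test gave p = 0.4 (adjusted p = 0.4 over 2 such tests). On the log2 scale this difference was 0.59, and it was 0.15 without replicate 2 of CK + G2 and 1.08 without replicate 3. The ratio in S + G2 was 2.36-fold that of CK + G2, with exact permutation p = 0.2 (adjusted p = 0.4), and the overlap came from replicate 2 of CK + G2, where the ratio was 20.9, against 19.8 in replicate 2 of S + G2. The log2 difference of 1.24 became 1.68 without replicate 2 of CK + G2 and 0.74 without replicate 3. The smallest p of these tests is 0.1. INV made up 2.62% to 4.82% of the reads of both genes in the S + G2 libraries, 2.93% to 3.89% in S, 4.57% to 15.0% in CK + G2 and 9.09% to 13.4% in CK.

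**Figure D4:**
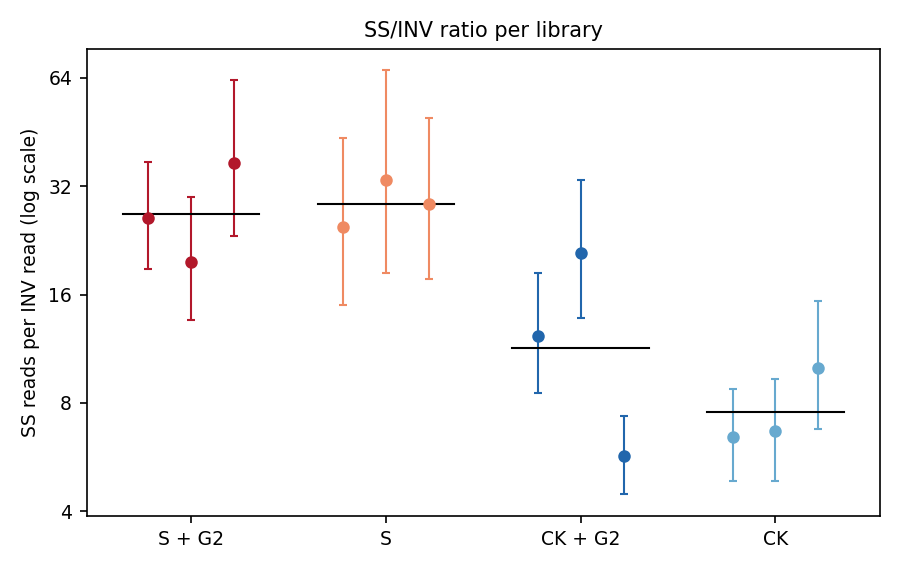
SS reads per INV read in each library on a log axis, with replicates 1 to 3 from left to right, 95% counting intervals as bars and the geometric mean of the treatment as a line. The 6 salted libraries lie between 19.8 and 37.1, the CK libraries between 6.45 and 10, and the CK + G2 libraries spread from 5.69 to 20.9.

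The intervals in the plot of the ratio are set by the few INV reads, and those of the 3 S libraries reach from 15.0 to 67.1.

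Most reads of both genes fell on transcripts assembled by the authors, not on the annotated ones. The tables do not pair assembled transcripts with genes. The pairing used here was chosen after seeing the data, and rests on reads that match exactly in each library. The 5254 SS reads off the annotated transcript equalled those of the assembled locus ONT.15935 in all 12 libraries, and the next best locus missed by 830 reads. The 384 such INV reads equalled those of ONT.3067, and the next best locus missed by 79. Of 13055 annotated genes with at least 100 such reads, 12578 or 96.3% equalled an assembled locus in the same way.

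Of all SS reads, 77.9% were on ONT.15935.1, 14.5% on ONT.15935.5 and 7.60% on the annotated transcript. Of all INV reads, 66.7% were on ONT.3067.1, 32.6% on ONT.3067.2 and 0.775%, or 3 reads, on the annotated transcript. How the assembled transcripts differ in their exons was not analysed here.

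All 3 SS transcripts had their highest mean in S + G2. ONT.15935.1 averaged 144 ± 41.5 CPM in S + G2, 91.2 ± 3.75 CPM in S, 94.9 ± 9.34 CPM in CK + G2 and 68.8 ± 2.52 CPM in CK (SD, n = 3 each). The annotated transcript averaged 17.9 ± 6.10, 7.54 ± 1.79, 8.67 ± 1.61 and 4.49 ± 0.845 CPM in S + G2, S, CK + G2 and CK. ONT.15935.5 had 45.3, 21.6 and 28.2 CPM in S + G2, 11.3, 8.72 and 24.4 CPM in S, 12.03, 16.3 and 14.02 CPM in CK + G2 and 15.96, 10.5 and 12.7 CPM in CK. Its means in S, CK + G2 and CK lay between 13.1 and 14.8 CPM, less than the spread of the libraries from each other. Replicate 3 of S, at 24.4 CPM, lay within the range of S + G2.

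In limma fits over the whole transcript table, ONT.15935.5 had a log2 fold change of 1.06 in S + G2 vs. CK + G2 (adjusted p = 0.360), and of 0.11 in CK + G2 vs. CK (adjusted p = 0.996). In S vs. CK it was 0.06 (adjusted p = 0.966 by limma). The interaction for it was 0.997 (adjusted p = 0.753 by limma). Over the 3 SS transcripts and the 3 comparisons for which SS was not listed, the lowest adjusted p by limma was 0.287, for ONT.15935.1 in S vs. CK. Both INV transcripts were lower in S than in CK, by log2 fold changes of -1.10 for ONT.3067.1 and -1.22 for ONT.3067.2, which are descriptions like the value of the gene.

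No difference in the shares of the transcripts within each gene passed the test. ONT.15935.1 took 74.5% ± 3.93 of SS reads in S + G2 and 80.7% ± 1.84 in CK + G2 (SD, n = 3 each), without overlap between the libraries. The exact permutation test gave p = 0.1 there, the smallest possible. Over the 24 tests of shares the lowest adjusted p was 0.48. For INV the shares of the assembled transcripts rest on 2 to 57 reads per library, and a share of ONT.3067.2 that was 11.6 percentage points higher in S + G2 than in CK + G2 did not pass the test (exact permutation p = 0.2).

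**Figure D5:**
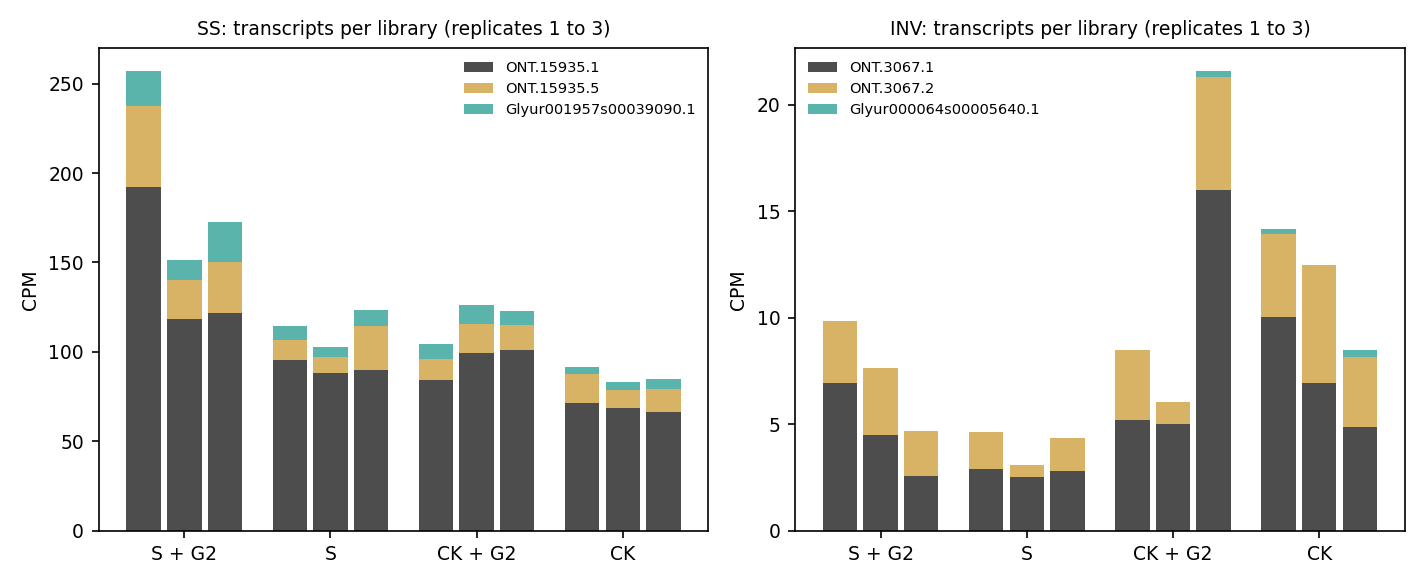
CPM of each transcript of SS (left) and INV (right) stacked per library, with replicates 1 to 3 of each treatment from left to right and no error bars. The assembled transcripts ONT.15935.1 and ONT.3067.1 hold 77.9% and 66.7% of the reads of their genes, and the annotated INV transcript holds 3 reads in all.

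Sucrose cleavage is 1 branch of starch and sucrose metabolism, for which the study names 9 other genes, 3 for β-glucosidase, 2 each for trehalose-phosphate synthase (TPS) and β-amylase (BM), and 1 each for α-glucosidase and hexokinase (HK). Amylases and glucosidases release sugars from starch and glucosides, TPS makes the signal sugar trehalose 6-phosphate, and hexokinase phosphorylates the glucose that invertase sets free. The study chose this list on these same libraries, so its counts are no independent evidence of a direction.

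In S vs. CK, 1 of the 9 rose and 3 fell at an adjusted p under 0.05 by limma. Of all genes, 0.357% rose and 1.58% fell. The median log2 fold change was -0.73 over the list and -0.05 over all genes. The study listed the 9, except α-glucosidase, for this very comparison. These counts and the adjusted p-values of the genes named next are therefore descriptions and not independent tests. The β-glucosidase *Glyur000779s00022830* had 2.75 ± 0.299 CPM in S and 0.371 ± 0.160 CPM in CK (log2 fold change 1.45, adjusted p = 0.0427), and its CK level was under the value of 3 reads. TPS *Glyur000018s00003759* had 29.9 ± 3.55 CPM in S and 50.2 ± 4.29 CPM in CK (-0.73, adjusted p = 0.0449). TPS *Glyur000231s00022077* had 21.6 ± 4.62 CPM in S and 74.0 ± 31.7 CPM in CK (-1.66, adjusted p = 0.0256). BM *Glyur000067s00006388* had 59.4 ± 8.28 CPM in S and 418 ± 33.8 CPM in CK (-2.80, adjusted p = 0.000105). By edgeR the first TPS gene had an adjusted p of 0.0535 and the β-glucosidase was not tested, and by DESeq2 the β-glucosidase had 0.0964.

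In CK + G2 vs. CK, 8 of the 9 could be tested and 1 fell, the same BM gene, with 74.8 ± 26.2 CPM in CK + G2 and 418 ± 33.8 CPM in CK (SD, n = 3 each; -2.52, adjusted p = 0.0123 by limma and 0.0586 by edgeR). DESeq2 called 3 of the 8 as lower, this gene, TPS *Glyur000231s00022077* (-1.97, adjusted p = 0.000938) and BM *Glyur000047s00004005* (-1.40, adjusted p = 0.0024), and 0.463% of all genes in either direction. By limma the log2 fold changes of the last 2 were -1.85 (adjusted p = 0.194) and -1.29 (adjusted p = 0.0865). The study listed these 3 genes as lower in S vs. CK. The CK libraries thus served in their listing as the higher group, so these values are not independent of how the genes were chosen. Of all genes, 0.0415% fell there. The list had a median of -0.26, against 0.02 over all genes. In S + G2 vs. S none of the 9 passed by limma, by edgeR, which called 0.00544% of genes, or by DESeq2, which called 0.145%. By limma 2 of the 9 were higher and 0 lower before adjustment at p under 0.05, where 2.88% of all genes were higher and 3% lower. These 2, α-glucosidase and TPS *Glyur000018s00003759*, are the ones that the study listed as higher in this very comparison. Their count is therefore a description and not a test. The medians were 0.08 over the list and -0.02 over all genes. In S + G2 vs. CK + G2 none passed by limma, by edgeR (0.0162% of genes called) or by DESeq2 (0.516%). By limma 1 was higher and 1 lower there before adjustment at p under 0.05, where 3.26% of all genes were higher and 6.76% lower. The higher one was α-glucosidase, for which the S + G2 libraries served in the listing. The medians were 0.21 over the list and -0.09 over all genes.

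Of the 9 genes, α-glucosidase varied most like SS over the 12 libraries, at a Pearson r of 0.76 on log2(CPM + 1), which ranked 90 among the 21548 genes with a mean of at least 1 CPM. It had 31.7 ± 3.50 CPM in S + G2, 19.0 ± 4.22 CPM in S, 21.3 ± 2.90 CPM in CK + G2 and 18.6 ± 1.72 CPM in CK. The study listed both α-glucosidase and SS as higher in S + G2 vs. S, so their r is not independent of the listing. The 2 genes most like SS were *Glyur000109s00010645* (r = 0.91), with means of 55.8, 40.1, 42.3 and 37.2 CPM in S + G2, S, CK + G2 and CK, and *Glyur000125s00010046* (r = 0.88), with 4.06, 1.17, 0.721 and 0.358 CPM. Both were highest in S + G2 and lowest in CK, as SS was, a likeness that their choice by r favours.

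INV had its nearest patterns in *Glyur000002s00000258* (r = 0.93), with means of 12.6, 7.11, 15.6 and 20.9 CPM in S + G2, S, CK + G2 and CK, and *Glyur000007s00002824* (r = 0.93), with 1.59, 0.542, 5.79 and 5.002 CPM. Both were lowest in S, as INV was, which their choice by r favours too. SS and INV themselves had an r of -0.12, and the β-glucosidase that rose in S vs. CK had an r of -0.78 with INV, rank 21510 of 21548. The study listed INV as lower and this β-glucosidase as higher in S vs. CK, so their r is not independent of the listing. These correlations describe 12 libraries that share treatments and depth, and they carry no test. The files give no function for the 4 genes.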

How the data were processed

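Full-length cDNA of 12 seedling libraries was analysed, grouped by the sample labels. The authors filtered reads by length, quality and ribosomal origin, polished those of full length, mapped them to a reference transcriptome (minimap2 is named in the submitters' processing notes; the sources used here give neither its version nor the genome release) and deposited CPM per gene and per transcript. The methods name an Illumina platform and the labels a nanopore one. Reads of near-identical gene copies cannot be told apart here.

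All values above 0 were whole multiples of the value of 1 read (100% within 0.01 of a read), so reads were recovered; edgeR on these reads called 1 gene in S + G2 vs. S, 343 in S vs. CK, 0 in CK + G2 vs. CK and 3 in S + G2 vs. CK + G2. CPM are not counts, so tests used limma 3.58.1 (trend, R 4.3.3) on log2(CPM + 1), for genes that reached 1 CPM in 3 or more of the fitted libraries, with 6 libraries per comparison, 12 for the interaction and Benjamini-Hochberg adjustment over all genes tested. SS/INV ratios, transcript shares and effects over both levels were tested by exact permutation. Alternatives were edgeR 4.0.16, DESeq2 1.42.0, other scalings, filters and pseudocounts, all 12 libraries in the fit, a replicate block and each library left out. Scripts were tested on simulated data. Figures used matplotlib 3.10.9.

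The 2 genes and the gene lists were chosen with earlier results of these data known. Named are SS, INV, their neighbours on the scaffold, the 2 genes most correlated with each, and those of the 9 starch and sucrose genes with an adjusted p under 0.05; α-glucosidase and the second BM gene, called by DESeq2 alone, were named after their values were seen. In a library without a read of a gene, the true level may still be as high as the value of 3 reads (0.764 to 0.908 CPM).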

Additional observations from a re-analysis of the deposited data

How the results depend on the processing

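Over the alternatives, 200 tested values of SS, INV and their ratio kept their direction and their side of the threshold, on the adjusted p of the tests over all genes and on the exact permutation p of the others, and 6 reversed without passing it. The side of the ratio was fixed in advance, since its permutation tests cannot go below 0.1. That of SS over both G2 levels with a library left out was fixed too, by the lack of overlap. Of the values described without a test, 51 kept their direction within the spread of the libraries, 2 reversed and 2 moved. The 6 were INV in CK + G2 vs. CK: 0.00822 by DESeq2, 0.00707 by edgeR's test, 0.10 on ONT.3067.1 alone, and -0.61 to 0.23 with a library left out. The 2 reversals were the SS/INV ratio in S + G2 vs. S, at -0.33 to 0.12 on the log2 scale with a library left out. SS in S + G2 vs. S moved to 1.11 on the annotated transcript alone and 1.11 on ONT.15935.5 alone. The cause was not tested. Annotated transcripts alone gave mean levels of 0 CPM for INV in both salted treatments, so no ratio could be computed from them. In the tests over all genes, over tools and settings and without libraries left out, adjusted p-values of SS were 0.0996 or more and those of INV, where tested, 0.613 or more. The replicate numbers do not pair the samples, since deviations of same-numbered libraries correlated at -0.21 to 0.10. The replicate block left INV in S + G2 vs. S at 0.70 (adjusted p = 0.780 by limma) and changed no call of SS or INV.

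Genes at an adjusted p under 0.05 numbered 418 in S vs. CK by limma, 221 to 414 over its other settings, 167 to 336 with a library left out and 671 by DESeq2. The same counts were 13, 4 to 17, 0 to 32 and 98 in CK + G2 vs. CK, 8, 2 to 6, 1 to 40 and 115 in S + G2 vs. CK + G2, 1, 0 to 1, 0 to 9 and 33 in S + G2 vs. S, and 1, 1 in each setting, 0 to 10 and 50 for the interaction. INV had 11 to 77 reads per library, and its SD was 0.776 to 4.65 times the one that counting alone gives.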
